A study of Rattus norvegicus with 167 samples.

Results

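Axon guidance ligands and receptors are the secreted and membrane-bound proteins that steer growing axons, and 59 of the 14218 genes measured on these rat spinal cord arrays belonged to this set. Members were all genes whose symbol begins with Sema, Plxn, Nrp1, Nrp2, Slit and a number, Robo, Efna, Efnb, Epha, Ephb, Ntn, Unc5 or is Dcc. They comprised 7 secreted semaphorins, 10 membrane semaphorins, 8 plexins, 2 neuropilins, 3 ephrin-A and 2 ephrin-B ligands, 8 EphA and 4 EphB receptors, 3 Slits, 3 Robos, 3 netrins and 4 netrin receptors. Unc50 and Unc5cl matched by symbol alone, and 57 members remained without them. For testing, 51 members were bright enough: 3 or more arrays had them over that array's 40th percentile. The 8 below that level were Dcc, Epha6, Epha8, Ntn5, Robo3, Sema3a, Slit1 and Unc5a. Of the tested members, Robo1, Ntng1 and Epha7 passed in the fewest arrays, at 5, 8 and 10 of 167. Calls of these genes rest in large part on values below the filter level. Where such a gene passed through 1 group, its difference from that group may in part come from the filter. Among relatives, Efnb2 and Ephb2 were not analysed here.

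Semaphorins signal through plexins, and the secreted class does so with neuropilins as ligand-binding partners. Ephrins sit on the cell surface and bind Eph receptors on the neighbouring cell, with signals running into both cells. Slits repel axons through Robo receptors, while netrin-1 attracts through Dcc and repels through Unc5 receptors. In the adult cord several of these proteins are made by glia, meningeal cells and blood vessels as well as by neurons, and many are known to halt growing axons in culture.

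The cord of adult female Wistar rats was cut through completely at thoracic level T7/8 and a 5 mm piece was taken out. Animals of the NT3 group had the gap bridged by a chitosan tube carrying the growth factor neurotrophin-3, those of the ET group by the same tube without it (empty tube), and those of the lesion control group (LC) had no implant. Segments of 5 mm from the rostral side, the lesion site and the caudal side were taken on days 1, 3, 10, 20, 30, 60 and 90. The lesion site was sampled from day 3 on, and with an empty tube on day 3 alone. Rostral arrays numbered 21 NT3, 20 ET and 21 LC, lesion site arrays 18 NT3, 3 ET and 18 LC, caudal arrays 21 in each arm, and 3 arrays came from uninjured cord. Lesion site tissue is therefore what came to fill the gap, not the original segment. Whether each replicate was its own animal is not in the labels, and the p-values then cover the spread between these samples alone, which may be technical. Tissue was bulk, so fewer cells of a type and less RNA per cell cannot be told apart.

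Values are RMA log2 intensities as deposited, on which a difference of 1 is a 2-fold change, and adjusted p-values are from limma with Benjamini-Hochberg correction over all 12041 tested genes. Array medians ran from 7.101 to 7.249, and the number of arrays limits the precision. Markers described the tissue. The mean of 7 neuron markers, of which 6 were tested, was 6.654 to 9.204 in lesion site LC arrays against 11.329 to 11.366 in uninjured cord. That of 5 myelin markers was 9.696 to 11.594 against 13.427 to 13.532. Fibroblast and meningeal markers were at 13.128 to 14.006 in lesion site LC arrays, at 10.577 to 13.323 in rostral LC arrays and at 8.973 to 9.202 in uninjured cord. RT1-CE10, a gene of the major histocompatibility complex, was above 9 in all arrays of 17 groups, in none of 35 and in some of 4, so it differed between groups that are compared below. The 4 mixed groups were LC: rostral day 3, caudal day 3, and lesion site days 3 and 20. A covariate beside group means is estimated from such groups alone, so counts with RT1-CE10 as a covariate cannot decide its part. The difference between 3′ and 5′ beta-actin probe sets averaged 1.169 in lesion site LC arrays, 1.065 in rostral LC and 1.004 in caudal LC. In uninjured cord it averaged 1.717 (1.355 to 2.294), with overlapping ranges. LC and uninjured cord thus also differed in the mean of this measure.

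Promoter sequence of 2 members is shown because they recur below: Plxnc1, which was higher after injury in all 3 segments, and Epha3, which was higher after injury and was called between treatments in all 3 segments. They were chosen after their values were seen. Sequences are from RefSeq on build GRCr8 and hold the 250 bases before the annotated start, written 5′ to 3′ along the gene, with matches to any of 3 motifs in capitals. The motifs, searched on both strands, were TGANTCA, bound by AP-1, GAGGAA, bound by the myeloid factor PU.1, and GGAATG, bound by TEAD factors.
Plxnc1, chr7:31430606-31430855, minus strand: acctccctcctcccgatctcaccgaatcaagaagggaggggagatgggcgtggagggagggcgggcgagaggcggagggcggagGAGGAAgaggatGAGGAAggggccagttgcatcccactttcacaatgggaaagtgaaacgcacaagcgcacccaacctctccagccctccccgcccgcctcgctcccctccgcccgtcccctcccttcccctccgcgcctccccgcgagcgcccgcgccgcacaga
Epha3, chr11:14920426-14920675, minus strand: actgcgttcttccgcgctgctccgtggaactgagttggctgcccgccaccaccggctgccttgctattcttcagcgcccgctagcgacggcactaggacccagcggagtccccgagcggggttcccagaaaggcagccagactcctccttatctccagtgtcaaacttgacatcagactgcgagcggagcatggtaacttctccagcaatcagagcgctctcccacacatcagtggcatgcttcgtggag
The Plxnc1 window holds GAGGAA in 2 places, and the Epha3 window holds none of the 3 motifs. GAGGAA occurs in 23.233% of all 27457 promoters of this length and in 9 of 45 member promoters, TGANTCA in 6.363% and in 1 member, and GGAATG in 11.757% and in 3 members. A match is a description of letters and not a site.

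Which guidance genes changed in the tissue that filled the gap was asked by setting lesion site LC arrays against uninjured cord. In days 10 to 30, 25 members rose and 21 fell of 51 tested, which is 90.2%, beside 79% of all genes, of which 41.9% rose and 37.1% fell. The median size of the difference was 1.304 over the members and 0.624 over all tested genes. On day 3 the count was 20 higher and 22 lower, or 82.4% beside 74.3% of all genes (40.8% higher, 33.5% lower). On days 60 and 90 it was 25 higher and 19 lower, or 86.3% beside 75.4% (40.4% higher, 35% lower). All of these comparisons share the same 3 uninjured arrays. The plot of differences by gene shows both directions within most families.

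**Figure D1:**
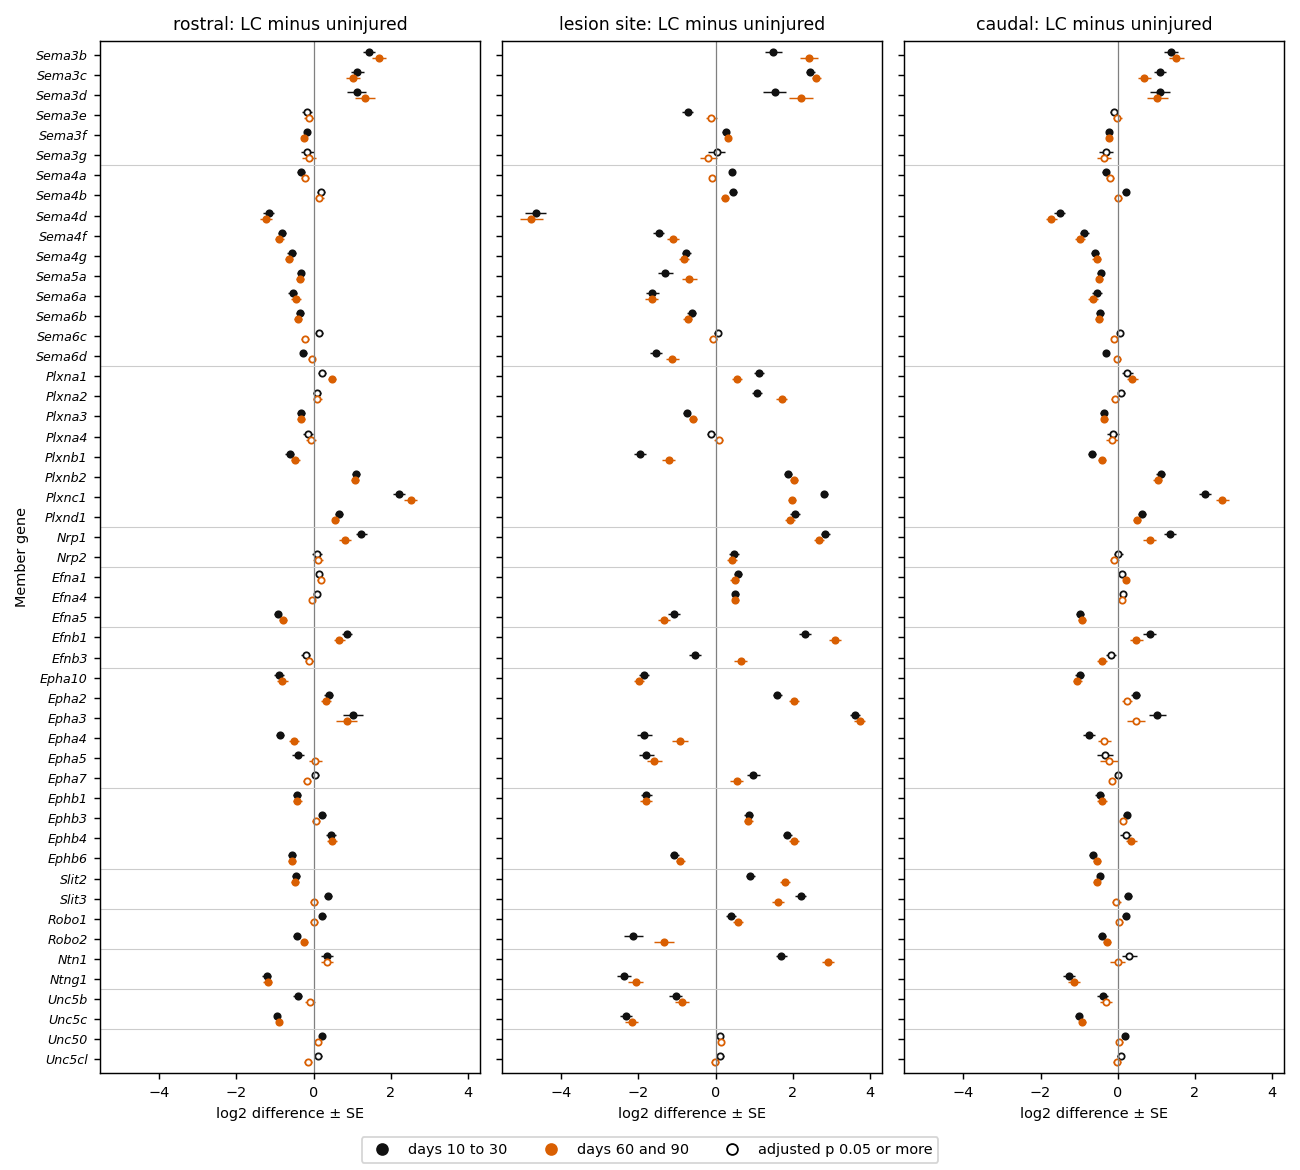
Difference between LC and uninjured cord (log2, x axis) for each tested member (y axis) in the rostral segment, the lesion site and the caudal segment, with points for the estimate and bars for the standard error. Black points are days 10 to 30, orange points days 60 and 90, and open points did not pass an adjusted p of 0.05. The spread is widest at the lesion site, where Sema4d lies lowest at −4.67 and Epha3 highest at 3.61 in days 10 to 30.

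Among secreted semaphorins, ligands that repel many axons through neuropilins and plexins, 4 of 6 tested rose at the lesion site in days 10 to 30, 1 fell and 1 was not called. Sema3c read 11.35, 11.91 and 12.38 as lowest, median and highest of 9 LC arrays, against 9.01, 9.57 and 9.84 in the 3 uninjured arrays, a difference of 2.46 ± 0.12 (SE, adjusted p = 1.1e-18). Every LC array of Sema3c lay above every uninjured one. Sema3d read 6.73, 7.21 and 7.88 in LC arrays against 4.83, 6.02 and 6.34 in uninjured cord (difference 1.53 ± 0.29, adjusted p = 1.99e-05). Sema3b read 7.28, 8.24 and 8.71 in LC arrays against 5.81, 6.49 and 7.45 in uninjured cord, where one uninjured array overlapped the LC range (1.49 ± 0.22, adjusted p = 2.48e-07). Sema3e, whose known receptor Plxnd1 binds it without a neuropilin, fell by 0.72 (SE 0.14, adjusted p = 2.15e-05). Sema3a, the best known axon repellent of the class, lay below the filter: it read 6.13, 6.31 and 6.11 in LC arrays of day 90 and 5.32, 5.79 and 5.38 in uninjured cord.

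Neuropilins and plexins, the receptors of secreted or membrane semaphorins, mostly rose. Nrp1, which binds Sema3 ligands and vascular endothelial growth factor, read 10.37, 11.01 and 11.38 in lesion site LC arrays of days 10 to 30, against 8.00, 8.11 and 8.18 in uninjured cord (difference 2.84 ± 0.11, adjusted p = 1.15e-20). Nrp2 rose by 0.47 ± 0.13 (adjusted p = 0.00114), and its arrays overlapped. Of 8 plexins, 5 rose, 2 fell and 1 was not called. Plxnc1, known as the receptor of Sema7a and found on leukocytes, read 8.36, 8.83 and 9.19 in LC arrays against 5.86, 6.01 and 6.08 in uninjured cord (2.82 ± 0.10, adjusted p = 1.3e-22). No LC array of Plxnc1 came near the uninjured level. Its other probe set rose by less, by 1.227. Plxnb2 read 10.84, 11.14 and 11.38 in LC arrays against 9.09, 9.17 and 9.42 in uninjured cord (1.89 ± 0.10, adjusted p = 4.31e-17). Plxnd1, a receptor of blood vessels, rose by 2.06 ± 0.12 (adjusted p = 3.5e-16), Plxna1 by 1.14 ± 0.13 (adjusted p = 1.43e-09) and Plxna2 by 1.08 ± 0.14 (adjusted p = 1.66e-08). Plxnb1, a receptor of Sema4d, went the other way and fell by 1.96 (SE 0.16, adjusted p = 9.65e-13), as did Plxna3, by 0.75 (SE 0.09, adjusted p = 7.95e-09). Other probe sets fell by less: those of Plxnb1 differed by −0.021 and −0.825, and that of Plxna3 by −0.103.

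Membrane semaphorins fell as a majority, with 7 of 10 lower, 2 higher and 1 not called. Sema4d, known as a product of oligodendrocytes that inhibits axons, had the largest difference of any member: 5.24, 6.21 and 7.25 in lesion site LC arrays of days 10 to 30 against 10.77, 10.89 and 10.90 in uninjured cord. It fell by 4.67 (SE 0.28, adjusted p = 4.2e-16). Its 5 most similar genes outside the set, by Pearson correlation over all 56 group means, were Rab37 (0.978), Tmem163 (0.975), Aplp1 (0.9741), Mag (0.974) and Ncald (0.9723), a description over groups that share tissue composition. Mag, a protein of the myelin sheath, was among the myelin markers that fell. Sema6a fell by 1.64 (SE 0.17, adjusted p = 1.09e-10), Sema6d fell by 1.55 (SE 0.16, adjusted p = 2.57e-10), Sema4f fell by 1.48 (SE 0.15, adjusted p = 6.87e-11) and Sema5a fell by 1.30 (SE 0.19, adjusted p = 2.44e-07), with Sema4g and Sema6b falling by less. Sema4a and Sema4b, both known from immune cells, rose by 0.43 ± 0.08 (adjusted p = 6.07e-06) and 0.45 ± 0.10 (adjusted p = 0.000144). Beside these results 5 of 5 tested myelin markers fell with a median of −3.631, 6 of 6 neuron markers fell with a median of −4.559, and 5 of 5 microglia and macrophage markers rose with a median of 2.43. The part of cell composition in the members' differences was not tested.

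Ephrins and Eph receptors divided within each class. Efnb1, a membrane-spanning ligand of EphB receptors, read 8.26, 8.85 and 9.06 in lesion site LC arrays of days 10 to 30 against 6.17, 6.48 and 6.75 in uninjured cord (difference 2.32 ± 0.15, adjusted p = 3.8e-15). Efna1 rose by 0.57 ± 0.10 (adjusted p = 8.5e-06) and Efna4 by 0.51 ± 0.09 (adjusted p = 2.72e-06), whereas Efna5 fell by 1.08 (SE 0.15, adjusted p = 5.92e-08). The probe sets of Efna5 disagreed in direction, as did those of Plxna1, Sema5a, Sema6a and Slit2. In 19 of 24 members with several probe sets all of them had the same sign, whatever the size of the difference. Efnb3, a ligand of midline cells and of myelin, read 7.31, 7.89 and 8.79 against 8.38, 8.59 and 8.67, so its ranges overlapped, and it fell by 0.54 (SE 0.16, adjusted p = 0.00267).

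Of the 6 EphA receptors tested, 3 rose and 3 fell. Epha3 read 8.85, 9.60 and 10.38 in lesion site LC arrays of days 10 to 30 against 5.83, 6.06 and 6.24 in uninjured cord (difference 3.61 ± 0.14, adjusted p = 1.99e-21), with a wide gap between the groups. This was the largest rise of any member. Epha2, known from epithelial and vascular cells, rose by 1.60 ± 0.12 (adjusted p = 5.79e-14) and Epha7 by 0.98 ± 0.16 (adjusted p = 2.2e-06). Epha7 was above the filter level in 10 of 167 arrays. Epha4, the receptor of corticospinal axons and of astrocytes that is known to restrict regrowth, read 7.66, 7.95 and 8.52 in LC arrays against 9.81, 9.90 and 9.97 in uninjured cord. It fell by 1.85 (SE 0.19, adjusted p = 2.79e-10), Epha10 fell by 1.86 (SE 0.12, adjusted p = 4.57e-15) and Epha5 by 1.80 (SE 0.19, adjusted p = 4.32e-10). The 4 EphB receptors split evenly: Ephb4, a receptor of veins, rose by 1.86 ± 0.12 (adjusted p = 5.94e-15) and Ephb3 by 0.86 ± 0.11 (adjusted p = 3.79e-08). Ephb1 fell by 1.80 (SE 0.14, adjusted p = 5.19e-13), and Ephb6, whose kinase domain is inactive, fell by 1.07 (SE 0.12, adjusted p = 4.76e-10).

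Slits rose while one of their receptors fell. Slit3 read 8.27, 9.18 and 9.84 in lesion site LC arrays of days 10 to 30 against 6.59, 6.72 and 7.17 in uninjured cord (difference 2.21 ± 0.15, adjusted p = 4.56e-15). Slit2 read 8.81, 9.53 and 10.30 against 8.65, 8.79 and 8.81, with the lowest LC array at the highest uninjured one, and rose by 0.90 ± 0.13 (adjusted p = 8.01e-08). A dim probe set of Slit2 differed by −0.076 and a further one by 1.622. Robo2 read 6.30, 6.82 and 7.40 in LC arrays against 8.93, 8.97 and 9.09 in uninjured cord and fell by 2.13 (SE 0.25, adjusted p = 3.21e-09). Robo1 rose by 0.40 ± 0.12 (adjusted p = 0.00395), but it was above the filter level in 5 of 167 arrays. With the beta-actin difference as a covariate Robo1 was 0.21 and no longer called.

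Netrin-1 (Ntn1), which attracts commissural axons in development, read 9.02, 9.49 and 10.13 in lesion site LC arrays of days 10 to 30 against 7.67, 7.82 and 7.89 in uninjured cord (difference 1.71 ± 0.15, adjusted p = 6.53e-12). Ntng1, a membrane-anchored netrin of neurons, fell by 2.38 (SE 0.19, adjusted p = 2.81e-13). It was above the filter level in 8 of 167 arrays, so part of this fall may come from the filter. Both tested Unc5 receptors fell, Unc5c by 2.32 (SE 0.15, adjusted p = 5.61e-15) and Unc5b by 1.04 (SE 0.17, adjusted p = 1.86e-06). Unc5c read 6.04, 6.60 and 6.89 in LC arrays and 8.62, 8.85 and 8.93 in uninjured cord. Dcc, the attractive receptor, read 4.12 to 4.56 in LC arrays and 4.12 to 4.32 in uninjured cord, below the filter. The 5 members not called in this comparison were Plxna4, Sema3g, Sema6c, Unc50 and Unc5cl. Of the 46 calls, 46 passed in every fit that left out 1 array.

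The order of events within the gap was read from LC arrays of days 60 and 90 against day 3. Members moved upward: 25 rose and 5 fell, where 23.6% of all genes rose and 30% fell. Called members made up 58.8% of those tested, beside 53.6% of all genes. Slit2 read 8.72, 8.58 and 8.62 on day 3, 8.81, 9.45 and 9.14 on day 10, 9.36, 9.53 and 9.92 on day 20, 10.15, 10.30 and 10.24 on day 30, 10.59, 10.20 and 10.31 on day 60, and 10.71, 10.74 and 10.74 on day 90. Its days 60 and 90 exceeded day 3 by 1.91 ± 0.13 (adjusted p = 1.15e-13). Slit2 did not pass the test against uninjured cord on day 3 (−0.11 ± 0.15, adjusted p = 0.52) and did on days 60 and 90 (1.79 ± 0.13, adjusted p = 8.48e-14).

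Efnb3 crossed the uninjured level. It read 7.15, 6.98 and 7.48 on day 3, 7.64, 7.31 and 7.43 on day 10, 8.23, 8.61 and 8.79 on day 30, and 9.50, 9.42 and 9.31 on day 90, against 8.38 to 8.67 in uninjured cord. Late minus early was 2.00 ± 0.17 (adjusted p = 1.14e-11), with Efnb3 below uninjured cord on day 3 (fell by 1.35, adjusted p = 2.37e-07) and above it on days 60 and 90 (0.66 ± 0.17, adjusted p = 0.000825). Of the secreted semaphorins 5 of 6 rose late over early, among them Sema3d (1.91 ± 0.31, adjusted p = 4.63e-06), Sema3b (1.29 ± 0.23, adjusted p = 2e-05) and Sema3e (1.17 ± 0.15, adjusted p = 6.27e-08). Of the plexins 6 of 8 rose. Epha4 rose again: it read 7.83, 7.69 and 7.58 on day 3 and 9.19, 8.96 and 9.43 on day 90 (late minus early 1.27 ± 0.21, adjusted p = 4.72e-06). Epha3 (1.19 ± 0.15, adjusted p = 3.1e-08), Efnb1 (1.12 ± 0.16, adjusted p = 7.13e-07), Ntn1 (1.07 ± 0.16, adjusted p = 1.48e-06) and Sema6d (1.02 ± 0.17, adjusted p = 7.43e-06) also rose. Sema4d went further down, by 0.92 (SE 0.30, adjusted p = 0.00982), a call that ended without LC day 3 replicate 1 (adjusted p = 0.0592). In the same comparison 4 of 5 microglia and macrophage markers, 3 of 6 neuron markers and 2 of 5 myelin markers (median −0.651) fell. Of astrocyte markers 2 of 5 rose and none fell (median 0.678), 2 of 3 pericyte markers and 1 of 6 fibroblast markers rose, and their part was not tested.

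**Figure D2:**
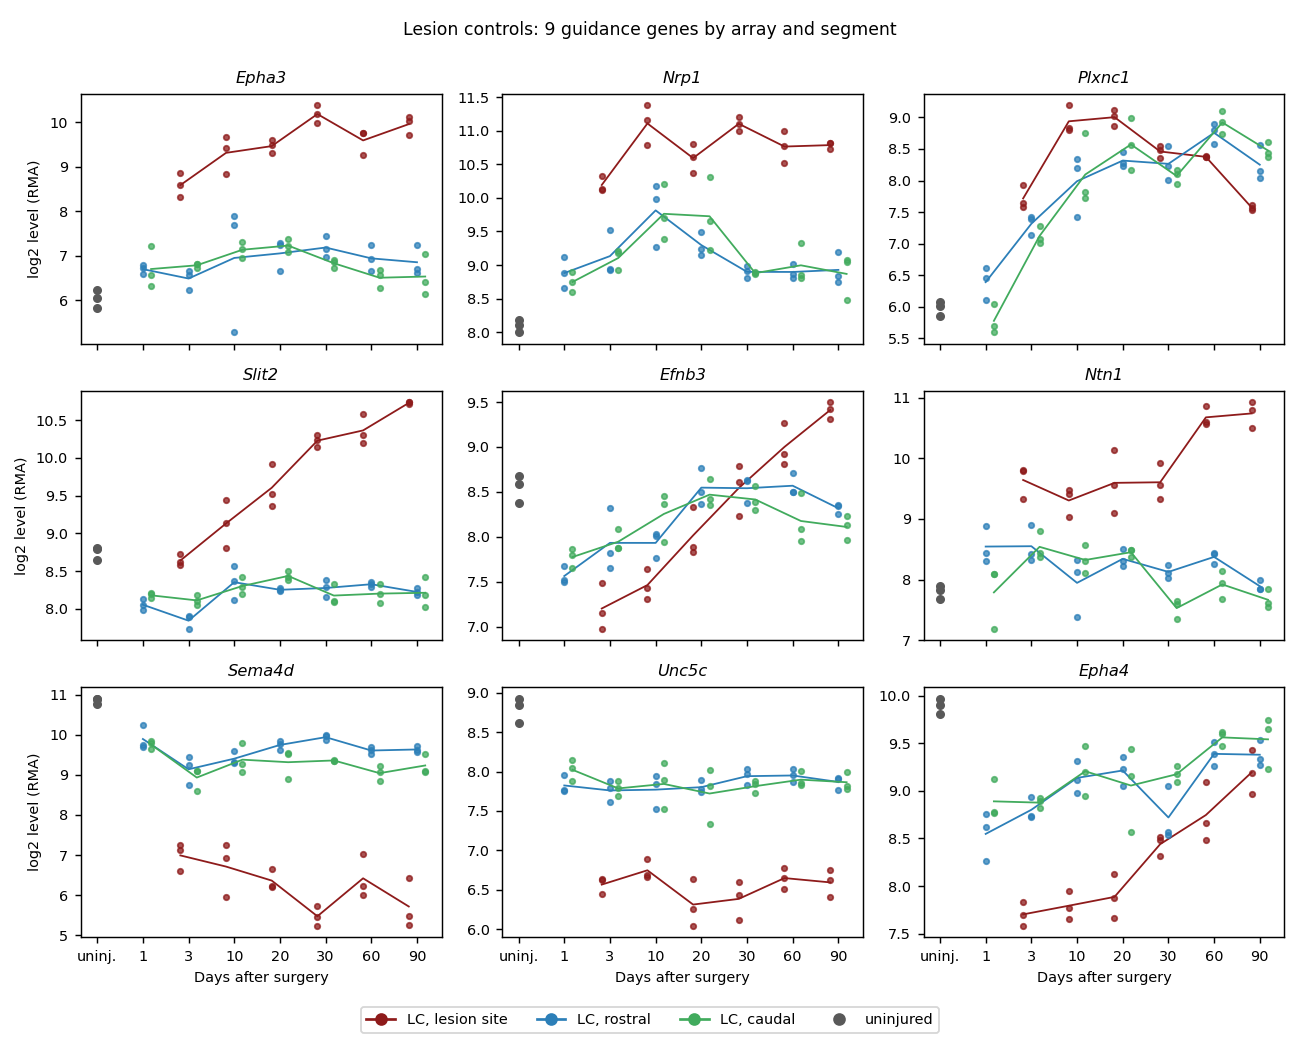
Log2 intensity (y axis) in single LC arrays by day (x axis) for 9 members in the rostral segment, the lesion site and the caudal segment, with uninjured arrays at the left. Slit2 and Efnb3 climb at the lesion site up to day 90, Sema4d lies low there on every day, and Plxnc1 climbs in the rostral and caudal segments after day 1.

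The cord beside the gap was set against uninjured cord in the same way. In rostral LC segments of days 10 to 30, 16 members rose and 22 fell, or 74.5% beside 60.5% of all genes (29.1% higher, 31.3% lower). In caudal LC segments 15 rose and 21 fell, or 70.6% beside 61.7% (29.2% higher, 32.5% lower). The median size of the difference over the members was 0.403 rostrally and 0.394 caudally, beside 0.296 and 0.306 over all genes. Plxnc1, by its brighter probe set, had the largest rise on both sides, at 2.21 ± 0.16 rostrally (adjusted p = 1.54e-16) and 2.27 ± 0.16 caudally (adjusted p = 2.91e-17). In rostral LC arrays it read 6.10, 6.45 and 6.62 on day 1, 7.38, 7.14 and 7.42 on day 3, and 8.58, 8.89 and 8.79 on day 60. Caudally it read 5.69, 5.60 and 6.04 on day 1 and 8.93, 9.09 and 8.74 on day 60, against 5.86 to 6.08 in uninjured cord. Plxnc1 on days 60 and 90 exceeded days 1 and 3 by 1.65 ± 0.14 rostrally (adjusted p = 3.17e-14) and 2.25 ± 0.14 caudally (adjusted p = 5.02e-19). The other Plxnc1 probe set rose by less in days 10 to 30, by 1.048 rostrally and 1.021 caudally. Microglia and macrophage markers rose in 5 of 5 cases in both segments, with medians of 2.029 rostrally and 2.132 caudally. Late over early, 2 of these 5 markers rose and 1 fell rostrally, and 3 rose caudally.

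Several ligands and receptors that rose in the gap also rose beside it. Sema3b rose by 1.44 ± 0.17 rostrally (adjusted p = 2.4e-10) and 1.39 ± 0.18 caudally (adjusted p = 5.07e-09), and Sema3c by 1.13 ± 0.17 (adjusted p = 1.01e-07) and 1.10 ± 0.15 (adjusted p = 2.77e-08). Nrp1 rose by 1.24 ± 0.14 (adjusted p = 2.87e-10) and 1.36 ± 0.16 (adjusted p = 4.22e-10), Plxnb2 by 1.10 ± 0.10 (adjusted p = 6.76e-13) and 1.12 ± 0.11 (adjusted p = 6.41e-12). Epha3 rose by 1.02 ± 0.26 (adjusted p = 0.000828) and 1.02 ± 0.22 (adjusted p = 7.92e-05). Sema3d rose by 1.12 ± 0.25 and 1.10 ± 0.25, but with the beta-actin difference as a covariate Sema3d was 0.29 rostrally, where the call ended, and −0.23 caudally. Fibroblast and meningeal markers rose in 6 of 6 cases on both sides, with medians of 2.754 rostrally and 2.523 caudally.

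Falls beside the gap were led by Sema4d, which fell by 1.16 rostrally (SE 0.14, adjusted p = 1.55e-09) and fell by 1.50 caudally (SE 0.14, adjusted p = 5.9e-13). Ntng1, mostly below the filter level, fell by 1.21 rostrally and by 1.26 caudally. Unc5c fell by 0.96 and by 1.00, Efna5 by 0.93 and by 0.96, Epha10 by 0.90 and by 0.98, and Epha4 by 0.87 and by 0.75, with rostral values first. Membrane semaphorins again fell as a majority, 8 of 10 rostrally and 8 of 10 caudally. With the beta-actin difference as a covariate the calls of Sema4a, Sema6a and Sema6b ended on both sides, and that of Sema4g caudally. Of all tested members, 16 were lower rostrally and 13 caudally with this covariate. Slit2 fell beside the gap, by 0.46 rostrally (SE 0.09, adjusted p = 3.77e-05) and by 0.45 caudally (SE 0.08, adjusted p = 4.08e-06), while it rose within it. Neuron markers fell in 6 of 6 cases on both sides and myelin markers in 5 of 5.

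The periods were then compared beside the gap. On days 1 and 3, 14 members rose and 22 fell rostrally, or 70.6% beside 67.7% of all genes (36% higher, 31.8% lower), and 15 rose and 19 fell caudally, or 66.7% beside 65% (34.3% higher, 30.7% lower). On days 60 and 90, 12 rose and 18 fell rostrally, or 58.8% beside 53.6% (24.9% higher, 28.7% lower), and 11 rose and 18 fell caudally, or 56.9% beside 56.6% (25.2% higher, 31.5% lower). Late over early, 16 members rose and 7 fell rostrally, or 45.1% beside 58.2% of all genes (25.6% higher, 32.6% lower). Caudally 11 rose and 11 fell, or 43.1% beside 58.2% (22.7% higher, 35.5% lower). Sema6d, a ligand of plexin-A receptors, regained 1.01 ± 0.08 rostrally (adjusted p = 2.53e-15) and 1.03 ± 0.07 caudally (adjusted p = 2.25e-16). Epha4 regained 0.71 ± 0.10 rostrally (adjusted p = 2.59e-08) and 0.67 ± 0.14 caudally (adjusted p = 5.52e-05), and Plxnb1 0.63 ± 0.09 (adjusted p = 1.57e-07) and 0.67 ± 0.09 (adjusted p = 1.01e-08). Slit3 declined, by 0.56 rostrally (SE 0.09, adjusted p = 9.05e-07) and by 0.43 caudally (SE 0.09, adjusted p = 9.69e-05). Astrocyte markers rose in 4 of 5 cases and fell in 1 on both sides, with medians of 0.311 rostrally and 0.449 caudally, and neuron markers rose in 4 of 6 cases rostrally and in 1 of 6 caudally, where 1 fell. Fibroblast and meningeal markers fell in 2 of 6 cases rostrally, where 1 rose, and in 4 of 6 caudally, and endothelial markers fell in 3 of 4 and in 2 of 4. Their part was not tested.

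**Figure D3:**
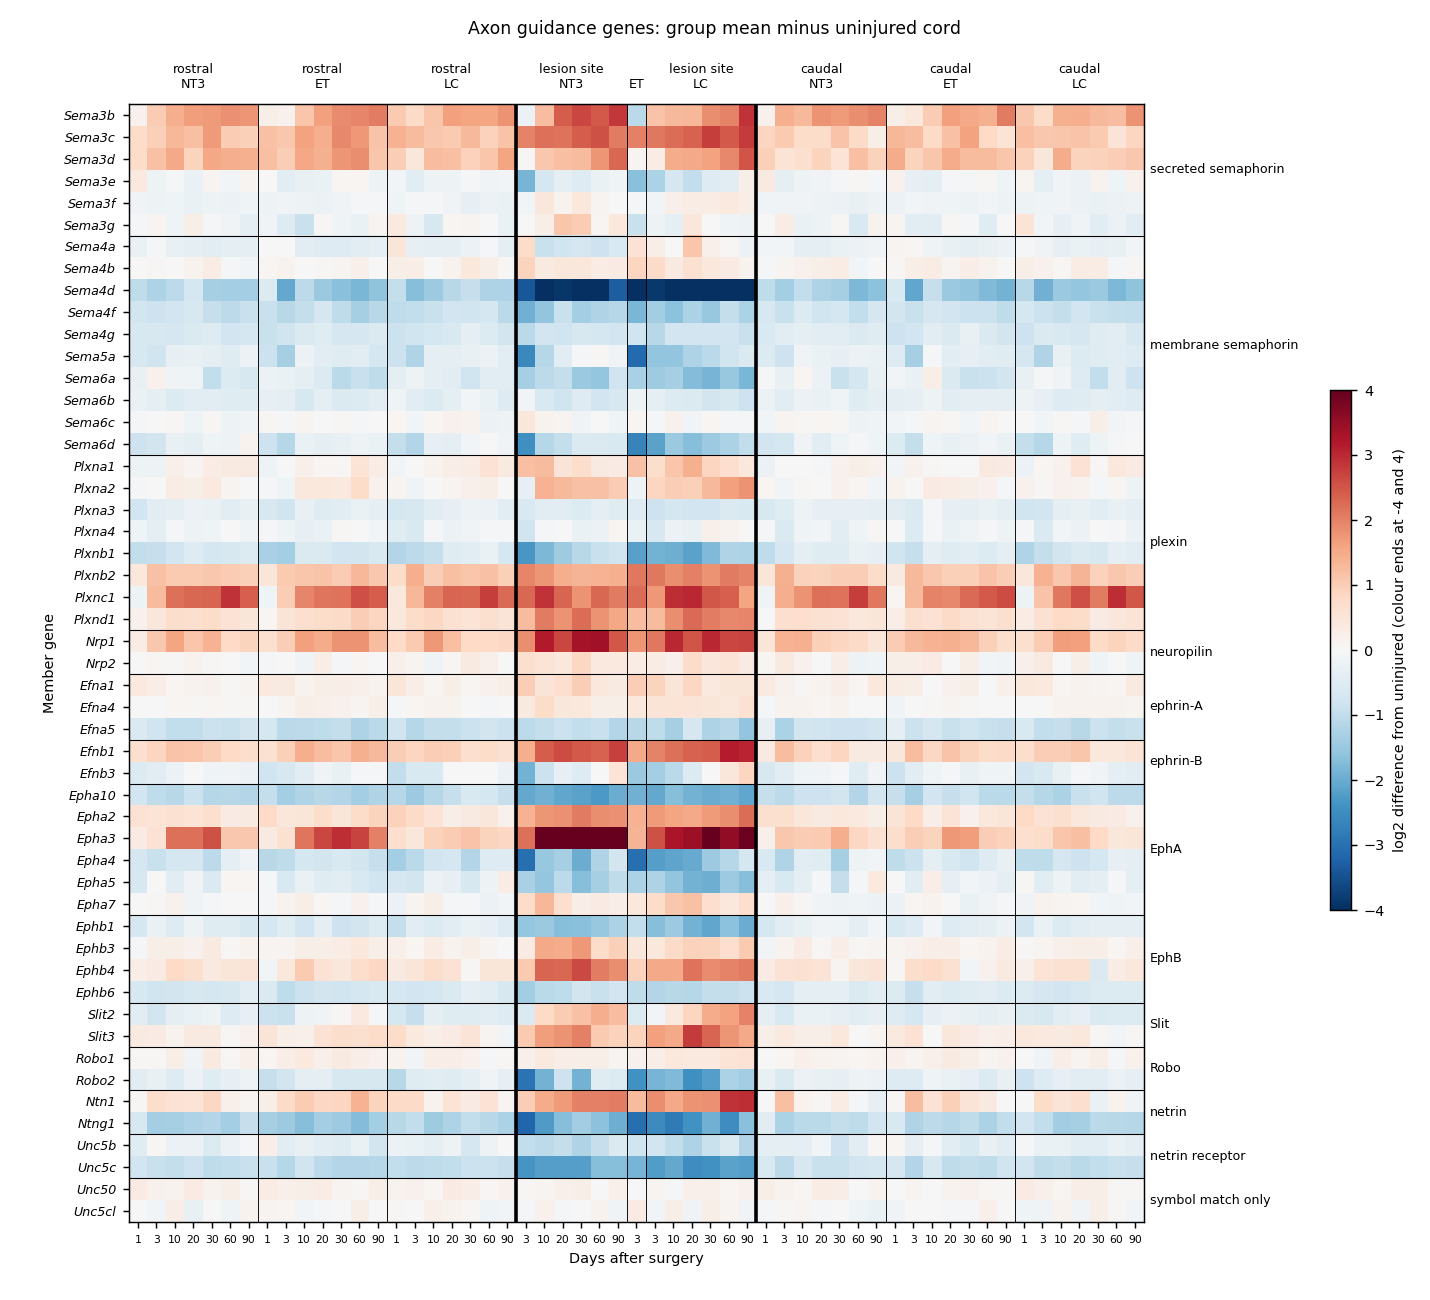
Difference of each injured group's mean from the uninjured mean (log2, colour from −4 to 4) for 51 tested members (rows) in 55 injured groups (columns), ordered as rostral, lesion site and caudal, and within each by NT3, ET and LC and by day. Sema4d is the most negative row at the lesion site and Epha3 the most positive, and most rows are paler in the rostral and caudal blocks than at the lesion site.

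The lesion site differed directly from the cord beside it. LC arrays of the lesion site were set against the rostral and caudal LC arrays of the same days, and 25 members were higher and 20 lower, or 88.2% beside 86.7% of all genes (48.7% higher, 38% lower). Lower members were led by Sema4d (difference −3.12 ± 0.08, adjusted p = 9.51e-64), Robo2 (−1.45 ± 0.07, adjusted p = 2.16e-41) and Ephb1 (−1.37 ± 0.05, adjusted p = 8.18e-50). Epha3 was higher by 2.64 ± 0.10 (adjusted p = 1.14e-49), Ntn1 by 1.79 ± 0.07 (adjusted p = 2.81e-45), Efnb1 by 1.75 ± 0.07 (adjusted p = 4.66e-50), Slit3 by 1.70 ± 0.05 (adjusted p = 2e-60) and Slit2 by 1.56 ± 0.04 (adjusted p = 4.78e-63). Plxnc1 was called at 0.17 ± 0.07 (adjusted p = 0.0148), but the mean of its probe sets gave −0.0069 and no call. In this comparison 6 of 6 neuron markers (median −3.142), 5 of 5 myelin markers (median −3.071) and 5 of 5 astrocyte markers (median −1.86) were lower and 6 of 6 fibroblast and meningeal markers were higher (median 1.98), and their part was not tested. The rostral and the caudal LC segment were then compared with each other. No member passed in limma, beside 0.415% of all genes (0.341% higher and 0.0747% lower rostrally), with 6 members at an unadjusted p under 0.05, and Sema4d came closest at 0.34 ± 0.09 (adjusted p = 0.0602). Segments with the same treatment, day and number may be of 1 animal, and with these as a random block Sema4d passed (adjusted p = 0.0427), while 45 members still differed between the lesion site and its neighbours.

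Whether the implants changed guidance genes was asked in each segment over the days that both arms had. LC animals had no tube, so the tube and its NT3 load cannot be told apart in NT3 over LC, and at the lesion site ET arrays exist on day 3 alone. The NT3 and ET comparisons share their LC arrays. In the rostral segment 12 members rose and 10 fell with the empty tube over LC, or 43.1% beside 22.8% of all genes (7.9% higher, 14.9% lower). On the 4 of 7 days with RT1-CE10 alike in both arms 5 members passed, 3 higher and 2 lower. Counts under the RT1-CE10 settings, here and below, have no share of all genes beside them. Days alike are fewer and other days than in the full comparison. Such counts are therefore not results about the members. With NT3 over LC 3 rose and 0 fell, or 5.88% beside 2.77% (1.15% higher, 1.61% lower), and 1 rose on days with RT1-CE10 alike, while 9 passed with RT1-CE10 as a covariate. With NT3 over ET 13 rose and 11 fell, or 47.1% beside 30.2% (17.4% higher, 12.8% lower). Epha3 had the largest difference in all 3 of these comparisons.

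Epha3 in the rostral segment read 8.29, 8.67 and 8.79 on day 30 and 7.26, 7.05 and 7.10 on day 60 with NT3, between 8.68 and 9.27 on day 30 and 8.71, 8.77 and 8.73 on day 60 with ET, and 7.15, 7.45 and 6.96 on day 30 and 6.94, 7.24 and 6.66 on day 60 in LC. The groups of day 30 did not overlap between either implant and LC, and on day 60 the NT3 arrays lay in and just above the LC range. On day 10, LC replicate 1 read 5.28 where its group read 7.89 and 7.69. Over the days, Epha3 rose by 0.59 ± 0.12 with NT3 over LC (adjusted p = 0.00455) and by 1.08 ± 0.12 with ET over LC (adjusted p = 2.1e-08). It was lower with NT3 than with ET by 0.49 (−0.49 ± 0.12, adjusted p = 0.00208). RT1-CE10 was alike in NT3 and LC on 4 of 7 days (10, 20, 30 and 60). In ET and LC it was alike on 4 (1, 10, 20 and 30). In NT3 and ET it was alike on 5 (3, 10, 20, 30 and 90). For NT3 over LC the days left out, 1, 3 and 90, had Epha3 differences of −0.334, 0.121 and 0.261. On the days alike alone the Epha3 difference was 1.02 for NT3 over LC (adjusted p = 0.000601), 1.10 for ET over LC (adjusted p = 9.77e-05) and −0.36 for NT3 over ET (adjusted p = 0.0873), so the last call ended.

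Other rostral members rose or fell with ET over LC by smaller amounts. Ntn1 rose by 0.40 ± 0.07 (adjusted p = 4.47e-05): on day 60 it read 8.05, 7.88 and 8.02 with NT3, 9.25, 9.10 and 9.19 with ET, and 8.25, 8.44 and 8.42 in LC. The ET arrays of that day stood above both other groups. On days with RT1-CE10 alike the Ntn1 difference of ET over LC was 0.29 (adjusted p = 0.0622). Nrp1 rose by 0.34 ± 0.07 (adjusted p = 0.00023), Efnb1 by 0.33 ± 0.06 (adjusted p = 5.03e-05), Slit2 by 0.31 ± 0.04 (adjusted p = 1.27e-06) and Sema3c by 0.30 ± 0.08 (adjusted p = 0.00455). Ntng1, mostly below the filter level, fell by 0.32 (SE 0.05, adjusted p = 1.8e-05) and Sema4d by 0.22 (SE 0.07, adjusted p = 0.0127). In the same comparison 6 of 6 fibroblast and meningeal markers rose (median 0.77), 3 of 4 skeletal muscle markers rose and 5 of 6 neuron markers fell (median −0.237). Their part in the members' differences was not tested.

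With NT3 over ET, Ntn1 fell by 0.43 (SE 0.07, adjusted p = 1.07e-05) and Nrp1 by 0.34 (SE 0.07, adjusted p = 0.000141). Ntng1, mostly below the filter level, rose by 0.34 ± 0.05 (adjusted p = 7.31e-06), Sema4d by 0.31 ± 0.07 (adjusted p = 0.000485) and Robo2 by 0.27 ± 0.04 (adjusted p = 3.89e-06). Both comparisons use the ET arrays. Here 6 of 6 fibroblast markers fell (median −0.61) and 6 of 6 neuron markers rose (median 0.31). Of NT3 over LC, the calls beside Epha3 were Epha4 (0.22 ± 0.05, adjusted p = 0.0138) and Slit2 (0.15 ± 0.04, adjusted p = 0.0429), and Slit2 lost its call in 26 of the fits that left out 1 array. Epha4 was 0.076 on days with RT1-CE10 alike, where its call ended.

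The NT3 over LC difference varied by day for 16 rostral members, or 31.4% beside 28.2% of all genes. Robo2 was the clearest (adjusted p = 0.000844): on day 1 it read 8.57, 8.43 and 8.64 with NT3, 8.10, 8.29 and 7.84 with ET, and 8.12, 7.84 and 7.73 in LC, and every NT3 array lay above both other groups. Its NT3 minus LC difference was 0.65 on day 1 and −0.20 on day 60. Sema3b of the same day read 6.66, 6.68 and 6.94 with NT3, 6.45, 7.12 and 6.89 with ET, and 7.45, 7.61 and 7.80 in LC. All LC arrays of Sema3b were higher than the implanted ones, on a day when RT1-CE10 was above 9 in LC and ET arrays and not in NT3 arrays.

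**Figure D4:**
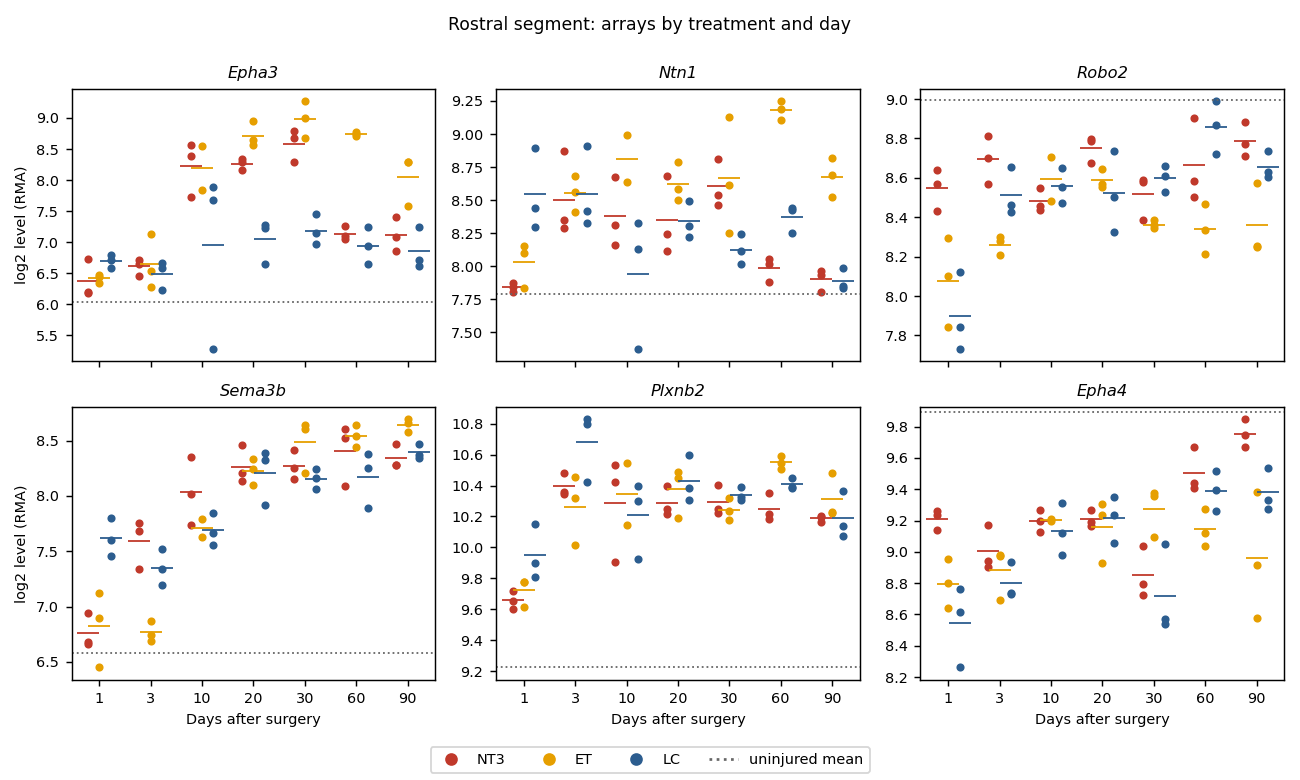
Log2 intensity (y axis) by day (x axis) in the rostral segment for 6 members, with NT3, ET and LC arrays as points, a bar for each group mean and a dotted line for the uninjured mean. Epha3 is higher with both implants than in LC from day 10 to day 30, and with ET alone on days 60 and 90, when NT3 minus LC was 0.19 and 0.26.

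In the tissue of the gap itself, 16 members rose and 9 fell with NT3 over LC, or 49% beside 41.9% of all genes (19% higher, 22.9% lower). With RT1-CE10 as a covariate 12 passed, 8 higher and 4 lower, and on days with it alike 18 passed. Epha3 rose by 0.90 ± 0.07 (adjusted p = 4.88e-12). It read 8.11, 8.22 and 8.40 on day 3, 11.18, 10.90 and 10.98 on day 10, 11.17, 11.43 and 11.17 on day 30, and 10.06, 10.08 and 10.12 on day 90 with NT3. LC arrays read 8.32, 8.86 and 8.59 on day 3, 8.85, 9.68 and 9.42 on day 10, 10.38, 9.99 and 10.19 on day 30, and 10.12, 10.04 and 9.73 on day 90. NT3 arrays were thus higher with no overlap on days 10 and 30, and the groups overlapped on days 3 and 90. The difference changed with the day (adjusted p = 8.76e-08), and it was 1.34 on the 3 of 6 days with RT1-CE10 alike (adjusted p = 3.62e-12). Those were days 10, 30 and 60. Days 3, 20 and 90 were left out, with NT3 minus LC of −0.347, 1.59 and 0.126, so 0.90 and 1.34 cover unlike days.

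Sema4a, a membrane semaphorin that is known to act on T cells, fell by 0.74 (SE 0.04, adjusted p = 5e-16). With NT3 it read 9.49, 9.48 and 9.31 on day 3, 7.66, 7.77 and 7.90 on day 10, 7.86, 7.97 and 7.79 on day 20, and 8.10, 8.16 and 8.00 on day 90. In LC it read 8.81, 9.01 and 9.03 on day 3, 8.75, 8.52 and 8.69 on day 10, 9.80, 9.82 and 9.70 on day 20, and 8.29, 8.55 and 8.50 on day 90. From day 10 on every NT3 array of these days lay below every LC array, whereas on day 3 NT3 was above. The change with the day passed (adjusted p = 4.59e-12), and on days with RT1-CE10 alike Sema4a differed by −0.88 (adjusted p = 7.29e-14). T cell markers fell in 3 of 3 cases (median −0.961) and microglia and macrophage markers in 3 of 5.

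Several members that had fallen in LC tissue were higher with NT3. Sema4d rose by 0.61 ± 0.14 (adjusted p = 0.000695), with 7.62, 7.61 and 7.41 in NT3 arrays of day 90 against 5.47, 5.25 and 6.43 in LC arrays. Sema6d rose by 0.45 ± 0.08 (adjusted p = 3.43e-05), Sema5a by 0.43 ± 0.10 (adjusted p = 0.000514), Sema6a by 0.42 ± 0.08 (adjusted p = 0.000119) and Robo2 by 0.39 ± 0.13 (adjusted p = 0.0123). These are means over the days. On day 3 NT3 minus LC was −1.085 for Robo2, −1.02 for Sema5a and −0.295 for Sema6d, beside 0.466 for Sema4d and 0.118 for Sema6a. Neuron markers rose in 6 of 6 cases (median 1.008), myelin markers in 5 of 5 (median 0.702), skeletal muscle markers in 4 of 4 (median 2.031) and dorsal root ganglion neuron markers in 3 of 3 (median 1.36), and their part was not tested. On days with RT1-CE10 alike, which were 10, 30 and 60, Sema4d was 0.26 and no longer called. The days left out, 3, 20 and 90, had NT3 minus LC of 0.466, 0.615 and 1.832 for Sema4d. Sema3g rose by 0.56 ± 0.11 (adjusted p = 0.000104). The falls beside Sema4a were led by Slit3, by 0.51 (SE 0.07, adjusted p = 1.44e-06), Ntn1, by 0.43 (SE 0.08, adjusted p = 3.44e-05), and Plxnb2, by 0.42 (SE 0.05, adjusted p = 1.4e-07), and Ntn1 was −0.23 and not called on days with RT1-CE10 alike (adjusted p = 0.104).

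The NT3 over LC difference changed with the day for 34 members at the lesion site, or 66.7% beside 50.6% of all genes. Plxnc1 was among the strongest (adjusted p = 3.63e-07): on day 20 it read 8.47, 8.24 and 8.25 with NT3 against 8.87, 9.03 and 9.11 in LC, and on day 90 it read 8.00, 8.14 and 8.04 with NT3 against 7.53, 7.62 and 7.57 in LC. The sign thus turned between these days without overlap on either, but RT1-CE10 differed between the arms on both. On days 10, 30 and 60, when it was alike, Plxnc1 differed by −0.06, −0.67 and −0.09. Sema3b was lower with NT3 on day 3 (NT3 minus LC −1.38) and higher on day 20 (1.10).

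On day 3, the sole day with an empty tube at the lesion site, 5 members rose and 9 fell with ET over LC, or 27.5% beside 23.2% of all genes (7.41% higher, 15.8% lower), and 9 passed with RT1-CE10 as a covariate. Sema3b read 5.67, 5.45 and 5.41 with ET against 7.62, 7.95 and 7.58 in LC and fell by 2.21 (SE 0.27, adjusted p = 1.59e-06), and NT3 arrays read 6.42, 6.36 and 6.23. Sema5a read 5.66, 5.15 and 5.82 with ET against 6.96, 7.39 and 6.87 in LC and fell by 1.53 (SE 0.23, adjusted p = 2.74e-05). Epha3 read 7.32, 7.29 and 7.60 with ET against 8.32, 8.86 and 8.59 in LC and fell by 1.18 (SE 0.17, adjusted p = 1.09e-05). In these 3 genes no ET array reached an LC array. Plxna2 fell by 1.07 (SE 0.17, adjusted p = 3.52e-05), Slit3 by 0.73 (SE 0.18, adjusted p = 0.00374) and Ephb4 by 0.58 (SE 0.15, adjusted p = 0.00648), while Ephb1 rose by 0.73 ± 0.18 (adjusted p = 0.00329) and Plxnc1 by 0.50 ± 0.12 (adjusted p = 0.00281). Epha4 fell by 0.81 (SE 0.24, adjusted p = 0.0137), a call that ended without ET replicate 1 (adjusted p = 0.0535). In the same arrays 4 of 5 microglia and macrophage markers rose (median 0.557) and 3 of 4 Schwann cell markers fell (median −1.185).

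**Figure D5:**
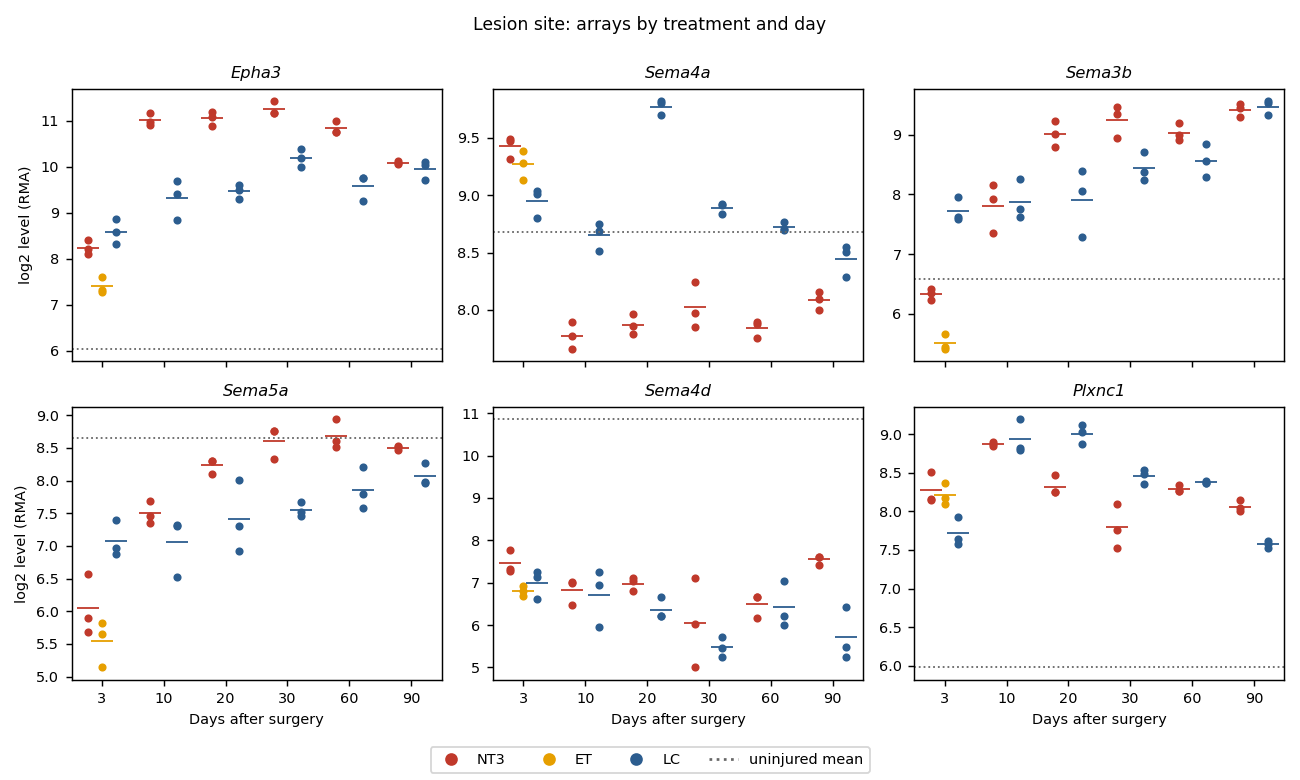
Log2 intensity (y axis) by day (x axis) at the lesion site for 6 members, with NT3, ET and LC arrays as points, a bar for each group mean and a dotted line for the uninjured mean. Epha3 is higher with NT3 than in LC from day 10 to day 60, Sema4a lower from day 10 on, and Sema3b lower on day 3 with both implants.

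In the caudal segment, with NT3 over LC 5 members rose and 0 fell, or 9.8% beside 9.76% of all genes (5.91% higher, 3.85% lower). They were Sema4d (0.23 ± 0.06, adjusted p = 0.0182), Sema5a (0.22 ± 0.04, adjusted p = 0.000554), Plxnb1 (0.19 ± 0.05, adjusted p = 0.01), Slit2 (0.15 ± 0.04, adjusted p = 0.00821) and Unc5c (0.15 ± 0.04, adjusted p = 0.0224). The Unc5c call ended without LC day 10 replicate 3 or LC day 20 replicate 2, with an adjusted p of up to 0.0534. In the same arrays 3 of 5 myelin markers rose (median 0.142), as did 2 of 2 motor neuron, 2 of 5 astrocyte and 2 of 4 Schwann cell markers, and their part was not tested. With ET over LC 2 rose and 0 fell, or 3.92% beside 3.5% (1.72% higher, 1.79% lower). These were Epha3 (0.35 ± 0.10, adjusted p = 0.0433) and Slit2 (0.13 ± 0.04, adjusted p = 0.0394), and neither passed in every fit that left out 1 array. With NT3 over ET 2 rose and 5 fell, or 13.7% beside 8.38% (4.65% higher, 3.73% lower). The falls were led by Sema3d, by 0.42 (SE 0.12, adjusted p = 0.0232), and Ntn1, by 0.34 (SE 0.09, adjusted p = 0.0139), and 5 of 6 fibroblast markers fell too (median −0.439). None of the calls in these 3 comparisons passed in limma with RT1-CE10 as a covariate, where 9 members for NT3 over LC, 11 for ET over LC and 10 for NT3 over ET had an unadjusted p under 0.05. Caudally this covariate was estimated from LC day 3 alone, the sole mixed group, so these lost calls cannot decide the part of RT1-CE10. On days with RT1-CE10 alike 1 member passed for NT3 over LC, which was Sema5a, 6 for ET over LC, where Epha3 and Slit2 were not among them, and 6 for NT3 over ET. By day, 2 members passed, or 3.92% beside 7.18%. One was Sema3b (adjusted p = 0.00686), which on day 1 read 6.52, 6.91 and 6.85 with NT3, 6.48, 6.96 and 6.99 with ET, and 7.64, 7.55 and 7.76 in LC. As in the rostral segment on that day, all LC arrays were above all implanted ones.

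Genes that work with these ligands and receptors were taken from 3 further lists. Of 41 tested transducers and adaptors, which carry the signal to the cytoskeleton, 16 rose and 17 fell at the lesion site in LC of days 10 to 30, where 41.9% of all genes rose and 37.1% fell, with a median of −0.024 beside 0.069 over all genes. Dok1 (2.31), Mical1 (1.90) and Fes (1.58) led the rises, and Dpysl5 (−3.94), Chn1 (−3.77) and Crmp1 (−2.45) the falls. Fes and the collapsin response mediators Crmp1 and Dpysl5 are known to act downstream of semaphorins, and Chn1 downstream of ephrins. Of 21 tested coreceptors and other cues 7 rose and 13 fell, with a median of −0.628. The chemokine Cxcl12 (3.70) and its receptor Cxcr4 (2.87) led the rises with Flrt2 (2.36), and Lrrc4c (−4.12), Flrt1 (−2.62) and Dscam (−2.21) the falls. Of 7 tested myelin-associated inhibitors and their receptors 2 rose, Ngfr (1.44) and Rtn4r (0.41), and 5 fell, led by Omg (−3.65), Mag (−3.63) and Lingo1 (−2.27), with a median of −0.770.

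The lists were then read between treatments. With NT3 over LC at the lesion site, 12 transducers rose and 10 fell of 41, and among coreceptors 9 rose and 3 fell of 21, where 19% of all genes rose and 22.9% fell. Myelin-associated inhibitors and receptors rose in 5 of 7 cases and fell in 1, led by Ngfr (0.84, adjusted p = 1.12e-06), the low-affinity neurotrophin receptor, and Mag (0.70, adjusted p = 0.002). Rostrally, ET over LC gave 5 rises and 10 falls among 41 transducers, where 7.9% of all genes rose and 14.9% fell. Of 21 coreceptors 3 rose and 6 fell (median −0.08), with Flrt2 (0.40, adjusted p = 0.000124) and Cxcl12 (0.36, adjusted p = 0.000486) among the rises. Rostral NT3 over LC called few genes of any kind, 2.77% of all genes (1.15% higher, 1.61% lower). In limma it called 0 of 41 transducers and 0 of 21 coreceptors, with 7 and 6 at an unadjusted p under 0.05. Of the myelin-associated list it called Omg alone (0.22, adjusted p = 0.0442).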

How the data were processed

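The 167 arrays formed 55 groups of 3 and 1 of 2. The submitters' processing notes name GCOS for the scans and RMA in Affymetrix Expression Console for the values, and the authors deposited 1 table of log2 values for 31099 probe sets. Which arrays were normalised together is not given in the sources used here. Of the probe sets, 20832 had 1 gene symbol in the array annotation and 436 with several were left out. The brightest probe set by mean stood for each of 14218 genes, and 12041 passed the filter on low values.

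The linear models used limma 3.58.1 under R 4.3.3, 1 fit per segment with the uninjured cords, and 1 fit of all arrays for comparisons between segments. Two-sided moderated p-values, and an F-test by day, were adjusted over the tested genes by Benjamini-Hochberg, and calls used 0.05. The fit was tested on simulated data. The members, lists, comparisons and markers were chosen with earlier results of these data known. Named genes were up to 8 per direction and comparison, a fixed set of well-known members, up to 3 per direction of each further list, and members under their role. The alternatives are in the closing section. Days with RT1-CE10 alike were added after seeing the data. Replicate numbers did not pair the arms: correlations of same-numbered NT3 and LC deviations ran from −0.353 to 0.401 rostrally, −0.286 to 0.454 at the lesion site and −0.448 to 0.378 caudally. Between segments of 1 treatment and day, same-numbered arrays had a median correlation of 0.074 (rostral and lesion site), 0.114 (rostral and caudal) and 0.05 (lesion site and caudal), so a random block (consensus correlation 0.054) was also fitted, after seeing the data.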

Additional observations from a re-analysis of the deposited data

Results flagged for a closer look

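The difference of NT3 over LC varied between days for 16 rostral, 34 lesion site and 2 caudal members, or 31.4%, 66.7% and 3.92%, beside 28.2%, 50.6% and 7.18% of all genes (moderated F-test in limma, adjusted over all genes). Rostrally the 3 clearest were Robo2 (adjusted p = 0.000844), Sema4a (adjusted p = 0.00102), for which NT3 minus LC was −0.77 on day 1 and 0.23 on day 3, and Ntn1 (adjusted p = 0.00412), with −0.70 on day 1 and 0.48 on day 30. At the lesion site they were Sema4a (adjusted p = 4.59e-12), with 0.48 on day 3 and −1.90 on day 20, Epha3 (adjusted p = 8.76e-08), with −0.35 on day 3 and 1.71 on day 10, and Plxnc1 (adjusted p = 3.63e-07), with −0.68 on day 20 and 0.49 on day 90. Caudally they were Sema3b (adjusted p = 0.00686), with −0.89 on day 1 and 0.73 on day 3, and Sema3g (adjusted p = 0.0475), with −0.55 on day 1 and 0.59 on day 90. The call of Sema3g ended in 42 of the fits that left out 1 array. Each day is 1 set of 3 NT3 and 3 LC arrays, and RT1-CE10 was alike in these on 4 of 7 days rostrally and caudally and on 3 of 6 at the lesion site.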

How the results depend on the processing

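Of 296 counts under alternatives, 32 moved by over 1.5 times, and none of them concerned LC against uninjured cord, late against early or the lesion site against its neighbours. The RT1-CE10 settings were not run for these comparisons. RT1-CE10 was above 9 in no uninjured array but in all LC arrays of days 30 and 90. Array weights took some of these counts to the limit of 1.5 times. Rostral LC on days 60 and 90 went from 30 to 45 members, and caudal late against early from 22 to 33. Without any 1 array, the members called ran from 0 to 2 for rostral against caudal, 2 to 6 for rostral NT3 over LC, 4 to 10 for caudal NT3 over LC, 1 to 6 for its test by day, 0 to 5 for caudal ET over LC and 4 to 8 for caudal NT3 over ET, and 493 of 609 called results passed in every such fit. Many of those lost rested on uninjured replicate 2, among them Epha3 rostrally on days 60 and 90 (adjusted p = 0.0546). Array weights, whose estimation stopped before its tolerance was reached, gave 2 members for rostral against caudal, 8 for rostral NT3 over LC, 45 by day, 37 for rostral NT3 over ET, 18 for caudal NT3 over LC, 28 by day, 7 for caudal ET over LC, 13 for caudal NT3 over ET and 24 for ET over LC at the lesion site on day 3. RT1-CE10 as a covariate gave 9 for rostral NT3 over LC, 12 for lesion site NT3 over LC, 9 for lesion site ET over LC, and caudally 0 for NT3 over LC, 1 by day, 0 for ET over LC and 0 for NT3 over ET. Each fit estimated this covariate from its mixed LC groups alone, so these counts cannot decide the part of RT1-CE10. Days with RT1-CE10 alike gave 1 and 5 for rostral NT3 and ET over LC, and 1 and 6 caudally. One fit of all arrays gave 10 rostrally by day, 6 caudally by day and 23 for lesion site ET over LC. The mean of probe sets gave caudally 3 for NT3 over LC, 1 by day and 1 for ET over LC. Caudal NT3 by day was also 1 without the filter, 4 with the 75th percentile scaling, 1 with the replicate block and 4 with the beta-actin covariate, and caudal ET over LC was 4 with that covariate. The replicate numbers did not pair the arms. The random replicate block across segments gave 1 for rostral against caudal. With the beta-actin covariate Sema3d turned against uninjured cord on days 1 and 3 rostrally (−0.0097) and in all 3 periods caudally (−0.57, −0.23 and −0.29), Sema6b on caudal days 1 and 3 (0.073), Robo1 on caudal days 10 to 30 (−0.14) and Ephb1 on caudal days 60 and 90 (0.019). With the mean of probe sets Robo2 turned on days 60 and 90 (0.10 rostrally, 0.0245 caudally), Sema3f on caudal days 1 and 3 (0.145) and Plxnc1 between lesion site and neighbours (−0.0069), and with RT1-CE10 alike Robo2 for rostral ET over LC (0.013). The cause was not tested. Quantile normalization, the stricter filter, the trended prior, the 3 arrays left out together and days 10 to 90 moved no count that far.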
